A study of Homo sapiens with 12 samples.

Results

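The genes described here are the 7 members of the FOS and JUN families, *FOS*, *FOSB*, *FOSL1*, *FOSL2*, *JUN*, *JUNB* and *JUND*, which encode the subunits of the transcription factor AP-1. They were taken by gene symbol, all 7 were found among the 26364 genes counted, and all 7 passed the filter on low counts in each of the 9 comparisons made. RNA-seq of total RNA was carried out on 12 libraries of HCT116 cells, a human diploid colon cancer line. WT cells and a p65-deficient line received no inhibitor, the TOP1 inhibitor CPT (camptothecin) or the TOP2 inhibitor ICRF193, both at 5 µM with a pre-incubation of 2 h, and were then left without TNFα or given 20 ng/ml TNFα in addition for 1 h. The labels name the second line "shRNA p65", while the study's methods describe a single-cell clone made with CRISPR-Cas9, so differences between the lines are differences between WT cells and 1 clone. Each of the 12 combinations of line, inhibitor and TNFα is represented by 1 library, and no combination has a replicate. The study's methods name both untreated and vehicle-treated cells, and the sample titles do not say whether the libraries without inhibitor had vehicle. If those libraries had none, effects of solvent and inhibitor cannot be told apart. Below, untreated means without inhibitor and without TNFα. The study added TNFα for 1 h after the 2 h with inhibitor. Whether the libraries without TNFα were also kept with inhibitor for that further 1 h is not given. If they were not, the libraries with TNFα also had the longer exposure to the inhibitor, and these cannot be told apart.

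AP-1 is a dimer of basic leucine zipper proteins. JUN proteins pair with each other or with a FOS protein, whereas FOS proteins do not form stable dimers among themselves and need a JUN partner. *FOS*, *FOSB*, *JUN* and *JUNB* are classical immediate early genes, switched on within minutes of a stimulus without new protein synthesis, and their mRNAs are short-lived. *FOSL1* and *FOSL2* encode FRA-1 and FRA-2, FOS proteins that lack the strong activation domain of *FOS*, and *JUND* encodes the JUN protein that is made most constantly in resting cells. TNFα signals both to NF-κB, whose p65 subunit is encoded by *RELA*, and to the JNK and p38 kinases that phosphorylate JUN and other AP-1 proteins.

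The deposited counts summed to 16300210 to 22051046 per library in WT cells and to 8101212 to 20524958 in p65-deficient cells. In the latter line 4 libraries were of lower depth, at 8101212 to 8755001, namely the 3 with TNFα and the one with ICRF193 alone. *RELA* had 694 to 909 normalized counts in WT cells and 548 to 673 in the clone. These ranges did not overlap, and the mRNA was lower but still present in the clone. How many other genes had separate ranges was not counted, and 16.9% of 13730 genes were called lower in the clone. A gene disrupted by a small change in its sequence can keep its mRNA, and the cause of the lower level was not tested. Epithelial markers were abundant, with 4656 to 6519 normalized counts of *EPCAM*, and the sum of the 6 markers was 54190 to 69811. Leukocyte, fibroblast and endothelial markers were near 0 in all libraries, each under 5 normalized counts for 8 of 11, *PTPRC*, *CD3E*, *COL1A2*, *COL3A1*, *PECAM1* and *CDH5* among them. The exceptions were *CD68* (199.7 to 352), *COL1A1* (74.6 to 196) and *VWF* (3.32 to 18.2).

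In the hg19 annotation of the files, *FOS* lies at chr14:75745481-75748937 on the plus strand with 4 exons, *FOSB* at chr19:45971253-45978437 (plus, 4 exons), *FOSL1* at chr11:65659607-65667997 (minus, 4 exons) and *FOSL2* at chr2:28615779-28637516 (plus, 4 exons). The JUN genes have no intron, and *JUN* lies at chr1:59246463-59249785 (minus), *JUNB* at chr19:12902310-12904125 (plus) and *JUND* at chr19:18390504-18392466 (minus). Counting made no use of the strand, but no exon of the 7 genes overlapped an exon of another annotated gene.

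The promoters of the 4 immediate early genes are shown because these genes had the largest changes in the libraries. The sequences are the 250 bases before the annotated start in RefSeq on build GRCh38.p14, which is not the build of the files, read 5′ to 3′ in the direction of the gene: *FOS* chr14:75278578-75278827, *FOSB* chr19:45467746-45467995, *JUN* chr1:58784048-58784297 (minus strand) and *JUNB* chr19:12791236-12791485. Capitals mark matches to the motifs searched on both strands.
*FOS*: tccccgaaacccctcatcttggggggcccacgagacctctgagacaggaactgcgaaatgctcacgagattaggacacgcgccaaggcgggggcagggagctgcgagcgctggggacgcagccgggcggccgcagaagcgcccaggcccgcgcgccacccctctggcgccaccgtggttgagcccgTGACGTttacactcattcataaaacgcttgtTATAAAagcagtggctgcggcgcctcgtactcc
*FOSB*: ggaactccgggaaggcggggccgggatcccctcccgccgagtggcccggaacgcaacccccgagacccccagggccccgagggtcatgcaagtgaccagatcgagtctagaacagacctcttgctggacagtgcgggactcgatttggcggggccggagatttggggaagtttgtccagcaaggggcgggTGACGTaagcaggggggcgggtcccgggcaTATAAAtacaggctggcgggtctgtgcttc
*JUN*: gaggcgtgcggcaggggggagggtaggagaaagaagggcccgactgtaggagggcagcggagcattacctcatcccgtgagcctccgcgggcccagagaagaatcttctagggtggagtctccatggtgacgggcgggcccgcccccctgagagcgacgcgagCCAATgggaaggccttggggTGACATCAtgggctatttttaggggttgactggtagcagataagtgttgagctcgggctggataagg
*JUNB*: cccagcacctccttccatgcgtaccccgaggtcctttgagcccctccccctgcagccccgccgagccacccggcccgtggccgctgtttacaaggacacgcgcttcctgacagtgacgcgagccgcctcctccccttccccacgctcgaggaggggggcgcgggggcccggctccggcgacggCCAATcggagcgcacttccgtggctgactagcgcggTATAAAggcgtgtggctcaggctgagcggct
The letters TGACGT, the core of the cAMP response element to which CREB and ATF proteins bind, stood at positions -64 to -59 of *FOS* and -60 to -55 of *FOSB*, and also at -66 to -61 of *FOSL2*. *JUN* held TGACATCA at -67 to -60, a variant of the AP-1 site. TATAAA, a form of the TATA box, was found at -33 to -28 of *FOS*, -30 to -25 of *FOSB* and -31 to -26 of *JUNB*, and CCAAT in *JUN*, *JUNB* and *JUND*. *JUND* had 3 matches to TGACGT, of which 2 overlapped on opposite strands. Of 35116 promoters of the same length, 7.10% held TGACGT, 2.37% TGACATCA, 10.7% TATAAA and 32.0% CCAAT. None of the 6 members in the table held the AP-1 site TGANTCA (6.57% of promoters), a CArG box (1.16%) or an NF-κB site (9.96%) in this window, which says nothing of sites elsewhere. *FOSL1* had no entry.

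In untreated WT cells the family was made up mainly of *JUND*, *JUNB* and *FOSL1*. Levels between genes were compared as normalized counts (counts divided by a size factor for each library) per kb of exon. *JUND* had 851 per kb (exact Poisson 95% interval 818 to 884), *JUNB* 777 (744 to 810) and *FOSL1* 660 (630 to 692). *FOSL2* followed at 144 (135 to 154), then *JUN* at 77.0 (69.6 to 85.1), *FOS* at 62.4 (54.1 to 71.5) and *FOSB* at 24.9 (21.0 to 29.3). The intervals of *JUN* and *FOS* overlapped, and those of the other neighbours in this order did not. Intervals cover counting error alone, since no replicate shows the spread between cultures. The order was the same in untreated p65-deficient cells, where *JUND* had 647 (617 to 677) and *JUNB* 617 (587 to 648), 2 intervals that overlapped, and *JUN* at 46.2 and *FOS* at 43.2 also had overlapping intervals.

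**Figure D1:**
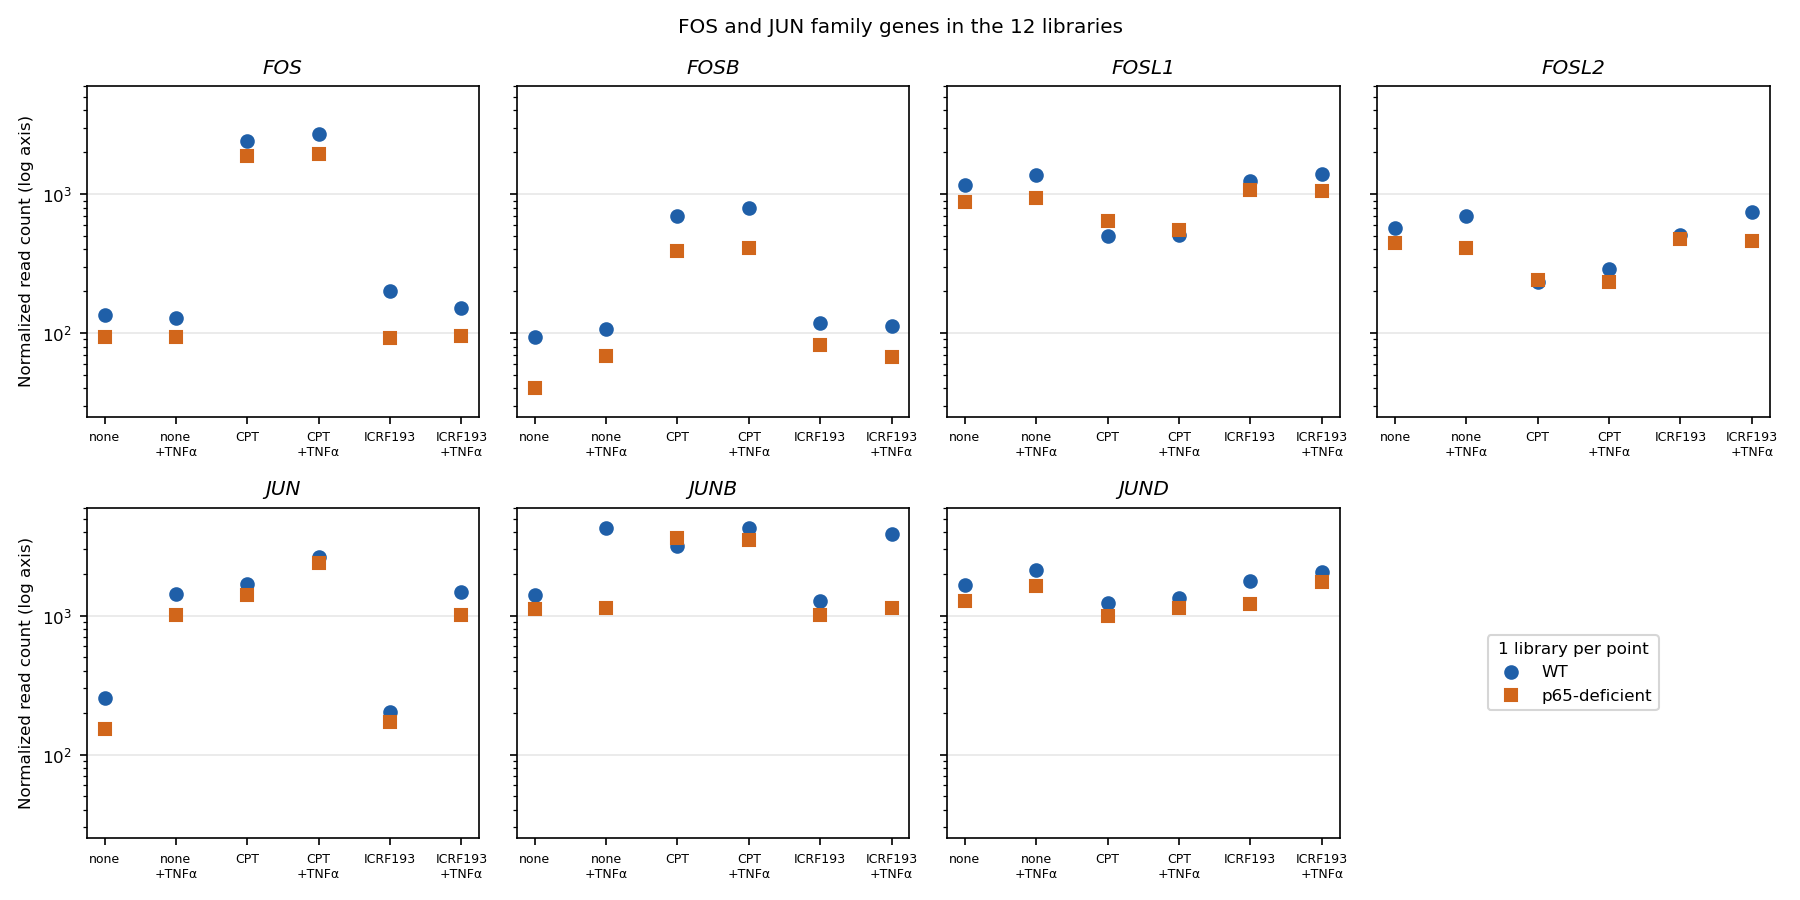
Normalized read count (log axis) of each of the 7 genes in the 12 libraries, by inhibitor and TNFα, with WT as circles and the p65-deficient clone as squares, 1 library per point. *FOS* stands at 1878 or more in the 4 libraries with CPT and at 202 or less in the 8 others, while *JUN* is also high with TNFα alone, and *JUNB* is high with TNFα alone in WT cells and not in the clone.

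CPT raised *FOS*, *FOSB*, *JUN* and *JUNB* and lowered *FOSL1*, *FOSL2* and *JUND*, so that all 7 genes changed in the comparison of CPT with no inhibitor. This comparison asks how each gene differs with CPT. It was made with edgeR's quasi-likelihood test over 4 pairs of libraries (2 lines, without and with TNFα), with the pair as a block. The error of the test therefore rests on the spread between pairs of different cells and treatments, not between replicates. As edgeR moderates it with the other genes, a gene's SE can be smaller than the spread of its own pairs. Of 13993 genes tested, 23.2% were called higher and 25.1% lower, against 4 and 3 of the 7 members.

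*FOS*, the founding member of its family, had 135 and 127 normalized counts in WT cells without CPT (without and with TNFα) and 2409 and 2687 with CPT. In p65-deficient cells it went from 93.3 and 93.5 to 1878 and 1945. No library with CPT overlapped one without. The ratios of the 4 pairs were close to each other, from 17.9-fold to 21.1-fold, and the fitted log2 change was 4.30 (SE 0.07, adjusted p = 1.3e-12), ranked 30 by size and 12 by p among the genes tested.

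*FOSB*, its nearest relative, showed the same pattern at a lower level. It rose from 93.9 and 106 to 699 and 792 in WT cells and from 40.0 and 68.0 to 390.1 and 409 in the clone, again with no overlap. The fitted log2 change was 2.93 (SE 0.11, adjusted p = 4.8e-09). The clone's values without CPT rested on 57 and 40 reads.

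*JUN* rose with CPT by an amount that depended on the TNFα in the pair. Without TNFα it went from 256 to 1682 normalized counts in WT cells and from 154 to 1398 in the clone, log2 ratios of 2.72 (95% interval 2.56 to 2.88) and 3.19 (2.98 to 3.39). With TNFα, where it was already at 1423 and 1004, it reached 2633 and 2389, log2 ratios of 0.89 (0.80 to 0.97) and 1.25 (1.11 to 1.39). The 4 pairs together gave a log2 change of 1.90 (SE 0.30, adjusted p = 3.3e-04), and the call was lost without the pair block (adjusted p = 0.052).

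*JUNB*, often a weaker activator than *JUN*, rose from 1411 to 3166 in WT cells and from 1119.7 to 3647 in the clone without TNFα. With TNFα it was 4301 without CPT and 4291 with it in WT cells, a log2 ratio of -0.0032 (-0.057 to 0.051), while in the clone it rose from 1139 to 3526. So 3 of 4 pairs lay above 0, and the fitted change was 1.09 (SE 0.21, adjusted p = 0.0016), lost without the pair block (adjusted p = 0.093).

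The other 3 genes fell. *FOSL1* had 878 to 1401 normalized counts in the 8 libraries without CPT, ICRF193 included, and 500.0 to 639.8 in the 4 with it, and fell by 0.99 on the log2 scale (SE 0.13, adjusted p = 8.4e-05). *FOSL2* had 408 to 746 without and 232 to 289 with CPT and fell by 1.10 (SE 0.09, adjusted p = 4.0e-06). Neither set of libraries overlapped the other for these 2 genes. How many of all genes were separated in this way was not counted, here or for *FOS* and *FOSB*, and 23.2% were called higher and 25.1% lower. *JUND* fell by 0.51 (SE 0.06, adjusted p = 2.7e-05), lower in 4 of 4 pairs, although its libraries with CPT (987 to 1348) overlapped those without (1216 to 2128). In bulk RNA, fewer cells with a transcript and less of it per cell cannot be told apart.

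**Figure D2:**
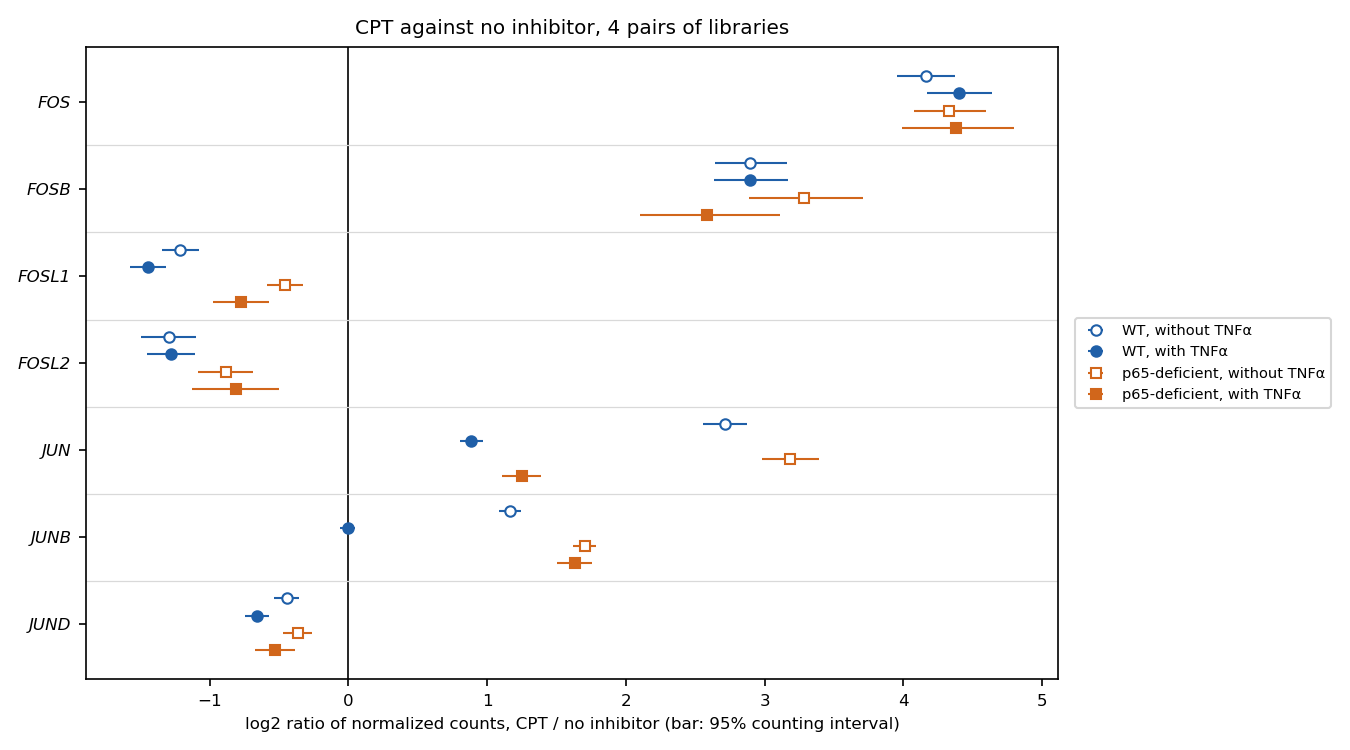
Log2 ratio of normalized counts with CPT to those without inhibitor for each gene (x axis) in 4 pairs of libraries, WT as circles and the p65-deficient clone as squares, filled where TNFα was present, with 95% intervals of counting error. *FOS* lies between 4.16 and 4.40 in all 4 pairs, *JUN* is lower in the pairs with TNFα, and *JUNB* lies at 0 in WT cells with TNFα.

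The fall of *FOSL1* and the rise of *JUNB* differed in size between the lines. In WT cells *FOSL1* had log2 ratios of -1.21 (-1.35 to -1.08) without TNFα and -1.44 (-1.57 to -1.32) with it, and in the clone of -0.46 (-0.59 to -0.33) and -0.77 (-0.97 to -0.57). The test of the difference gave -0.72 (SE 0.12, adjusted p = 0.0017), WT minus clone. For *JUNB* the difference was -1.09 (SE 0.22, adjusted p = 0.0088), with the WT pair with TNFα at 0 and the other 3 pairs at 1.17 to 1.70. These were the 2 members among the 4.78% of 14573 genes called. *FOSL2* had a difference of -0.41 (SE 0.13, adjusted p = 0.085) and *FOS* of -0.05 (SE 0.14, adjusted p = 0.89). The *JUNB* call was lost with DESeq2 (adjusted p = 0.64) and without the pair block (adjusted p = 0.16).

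As CPT was used at the same concentration and time as ICRF193, the inhibitors could be set against each other. ICRF193 called 0 of the 7 genes in edgeR's quasi-likelihood test over 4 pairs, against 2.17% of 13631 genes in either direction, with 4 of the 7 at an unadjusted p under 0.05 beside 11.5% of all genes tested. DESeq2 also called 0, and 1 gene, *JUNB*, passed without the filter on low counts (adjusted p = 0.035). *JUNB* had the smallest adjusted p, at 0.054, with a log2 change of -0.12 (SE 0.04). *FOS* had a log2 change of 0.31 (SE 0.10, adjusted p = 0.12). In WT cells without TNFα it had 202 normalized counts with ICRF193 against 135 without, and in the clone 91.5 against 93.3. *FOSB* had a change of 0.32 (SE 0.12, adjusted p = 0.23). Its log2 ratio was 1.04 (0.47 to 1.60) in the clone without TNFα, from 52 and 57 reads, and the intervals of its other pairs included 0. *JUN* had a change of -0.02 (SE 0.05).

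In the direct comparison of CPT with ICRF193, *FOS* differed by 4.01 (SE 0.11), *FOSB* by 2.56 (SE 0.10), *JUN* by 1.84 (SE 0.28) and *JUNB* by 1.18 (SE 0.19), all higher with CPT. *FOSL1* (-1.14, SE 0.10), *FOSL2* (-1.15, SE 0.09) and *JUND* (-0.54, SE 0.06) were lower, and all 7 adjusted p-values were at or below 2.5e-04. Among all genes tested, 20.9% were higher and 25.5% lower. Without the pair block *JUN* (adjusted p = 0.056) and *JUNB* (adjusted p = 0.052) no longer passed. This comparison and that with no inhibitor share their CPT libraries.

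TNFα raised *JUN* in both lines and *JUNB* in WT cells. In WT cells 4 of the 7 genes were called higher over 3 pairs (no inhibitor, CPT and ICRF193), against 0.613% of 13707 genes, and none lower. *JUN* went from 256 to 1423 without inhibitor, from 1682 to 2633 with CPT and from 203 to 1470 with ICRF193, and *JUNB* from 1411 to 4301, from 3166 to 4291 and from 1279 to 3850.0. Every library with TNFα was above its partner for both genes. The fitted log2 changes were 1.75 (SE 0.21, adjusted p = 2.0e-05) for *JUN* and 1.19 (SE 0.13, adjusted p = 2.3e-06) for *JUNB*, ranked 11 and 18 by size.

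*FOSL2* and *JUND* rose less. *FOSL2* went from 574 to 701, from 234 to 289 and from 504 to 746 in the 3 WT pairs, a log2 change of 0.39 (SE 0.07, adjusted p = 0.0024), and *JUND* changed by 0.24 (SE 0.05, adjusted p = 0.010). *FOS* had a log2 change of 0.01 (SE 0.08), *FOSB* of 0.13 (SE 0.09) and *FOSL1* of 0.17 (SE 0.05, adjusted p = 0.50). For *FOS* the WT pairs lay on both sides of 0, at -0.08 (-0.39 to 0.23) without inhibitor, 0.16 (0.09 to 0.23) with CPT and -0.42 (-0.70 to -0.13) with ICRF193. DESeq2 called none of the 7 genes in WT cells (*JUN* adjusted p = 0.38, *JUNB* 0.34), nor did the fit without the pair block, whereas leaving out the CPT pair gave 2.63 for *JUN* and 1.60 for *JUNB*. The call of *FOSL2* was also lost without the ICRF193 pair (adjusted p = 0.53) and that of *JUND* without it (0.20) or the pair without inhibitor (0.90), and both with the libraries thinned to the smallest total (0.29 and 0.25).

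In p65-deficient cells 2 of the 7 genes were called higher, against 0.28% of 12858 genes. *JUN* went from 154 to 1004 without inhibitor, from 1398 to 2389 with CPT and from 170.4 to 1006 with ICRF193. Its log2 change of 1.66 (SE 0.17, adjusted p = 4.7e-07) ranked 1 by size and by p among all genes tested. *JUND* rose by 0.37 (SE 0.06, adjusted p = 9.7e-04), from 1269.8 to 1628, from 987 to 1129.8 and from 1216 to 1751. *JUNB* was 1119.7 and 1139, 3647 and 3526, and 1015 and 1143 without and with TNFα, and its change was 0.04 (SE 0.05, adjusted p = 0.79). The pairs without inhibitor and with CPT set a library of lower depth against a deeper one, and the ICRF193 pair, with 8755001 and 8676666 reads, had log2 ratios of 2.56 (2.27 to 2.87) for *JUN*, 0.53 (0.39 to 0.66) for *JUND* and 0.17 (0.02 to 0.33) for *JUNB*. DESeq2 (*JUN* adjusted p = 0.53) and the fit without the pair block again called none of the 7.

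**Figure D3:**
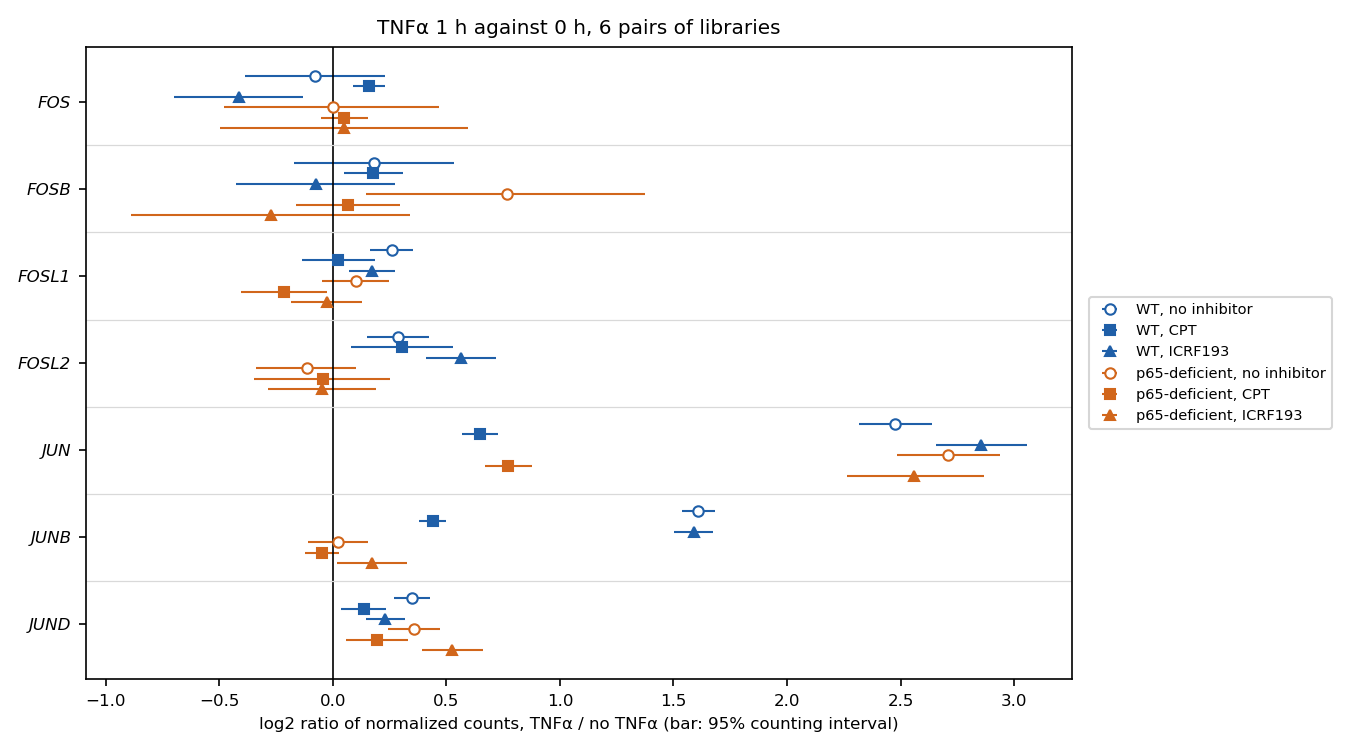
Log2 ratio of normalized counts with TNFα to those without for each gene (x axis) in 6 pairs of libraries, WT in blue and the p65-deficient clone in orange, open circles without inhibitor, squares with CPT and triangles with ICRF193, with 95% intervals of counting error. *JUN* lies at 2.47 to 2.85 in the 4 pairs without CPT and at 0.65 and 0.77 with CPT, and *JUNB* is above 1.5 only in the WT pairs without inhibitor and with ICRF193.

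The response to TNFα differed between the lines for *JUNB* and was not shown to differ for *JUN*. The test of the difference, WT minus clone, gave 1.15 for *JUNB* (SE 0.19, adjusted p = 0.0074), the only member among the 0.228% of 14459 genes called. For *JUN* it was 0.09 with a larger SE of 0.43 (adjusted p = 0.96), which does not show that the lines responded alike. *FOSL2* had a difference of 0.46 (SE 0.11, adjusted p = 0.093), with all 3 WT pairs above 0 and all 3 pairs of the clone at -0.12 to -0.04. The *JUNB* call was lost when the WT ICRF193 pair or the clone's pair without inhibitor was left out (adjusted p up to 0.081), with DESeq2 (adjusted p = 0.82) and without the pair block.

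CPT changed the response of *JUN* to TNFα on the log scale. In the 4 pairs without inhibitor or with CPT, the log2 change with TNFα was lower by 1.87 in the presence of CPT (SE 0.14, adjusted p = 2.3e-13). *JUN* ranked 1 by p, and 5 of 14573 genes (0.0343%) passed over both lines together. The others were *ATF3*, a bZIP partner of JUN, the chemokines *CXCL8* and *CXCL1*, and *BIRC3*, named after their values were seen. Because the test averages the lines, a gene whose TNFα response changed with CPT in WT cells alone can fail it. The number of TNFα responses that changed with CPT within WT cells was not tested. *JUNB* had a difference of -0.69 (SE 0.21, adjusted p = 1), with an unadjusted p of 0.0022 in edgeR's test, ranked 28. Its pairs were 1.61 without and 0.44 with CPT in WT cells and 0.02 and -0.05 in the clone. The *JUNB* difference passed in edgeR's test without the filter on low counts (adjusted p = 1.5e-04), and was -1.42 to 0.17 with 1 pair left out. The *JUN* difference was -1.78 to -2.00 with 1 pair left out and -1.94 when the ICRF193 libraries joined those without inhibitor, and was not called without the pair block (-1.87, adjusted p = 1.0).

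On the scale of counts the TNFα response of *JUN* was of similar size with and without CPT, a description chosen after the values were seen. TNFα added 1167 normalized counts without inhibitor, 951 with CPT and 1266 with ICRF193 in WT cells, and 851, 991 and 836 in the clone. CPT and TNFα together gave 2633 (exact Poisson 95% interval 2547 to 2720) in WT cells, where the separate differences summed to 2849 and the separate ratios multiplied to 9350.2, and 2389 (2264 to 2519) in the clone, where they came to 2248 and 9135. For *JUNB* in WT cells the combined level of 4291 (4182 to 4402) was below the sum of 6056 and close to the 4301 of TNFα alone. *FOS* with both agents, at 2687 in WT cells and 1945 in the clone, was at 1.12 and 1.04 times its level with CPT alone.

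**Figure D4:**
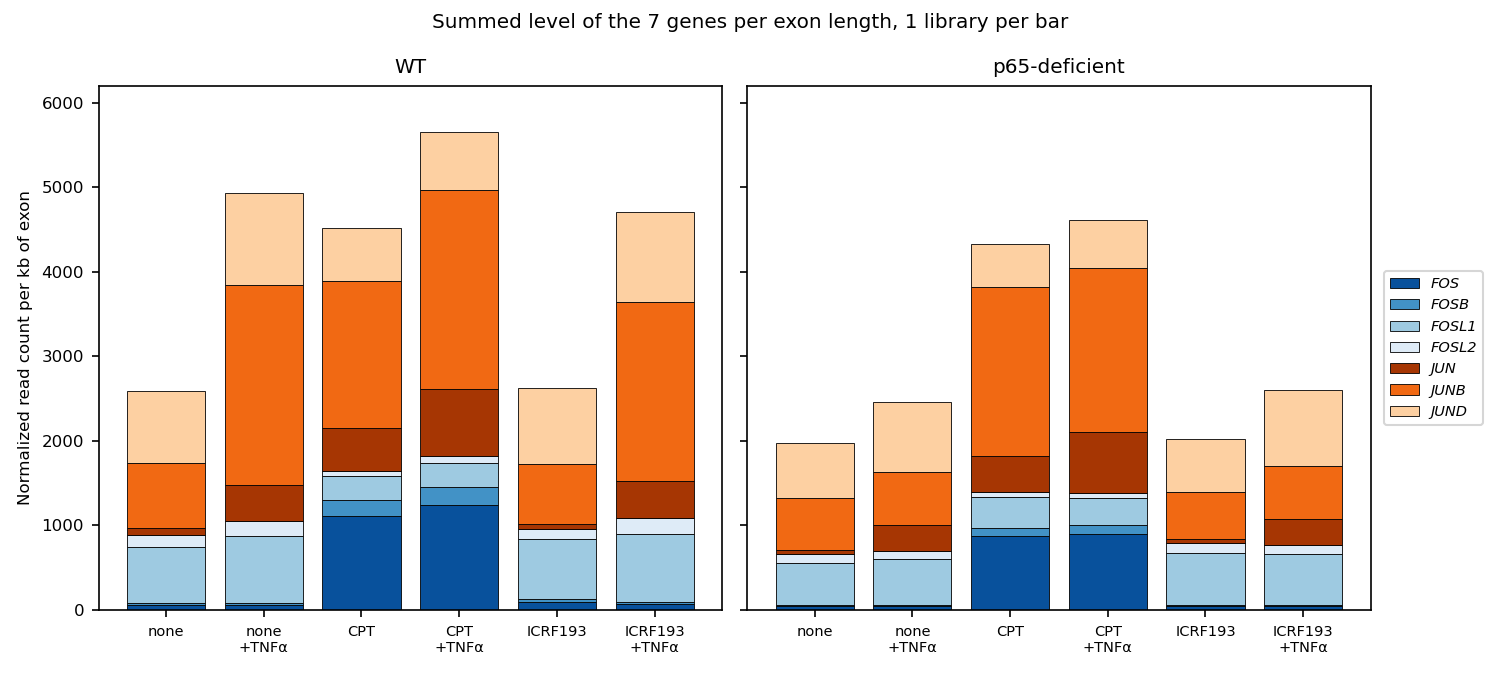
Summed normalized read count per kb of exon of the 7 genes in each library (bars, WT left and p65-deficient clone right), divided by gene. The sum rises from 2596 in untreated WT cells to 4519 with CPT, 4933 with TNFα and 5659 with both, and in the clone from 1975 to 4330, 2459 and 4618.

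The make-up of the family therefore differed by treatment. In untreated cells *FOS* contributed 2.40% (WT) and 2.19% (clone) of the summed level per kb and *FOSL1* 25.4% in both lines. With CPT, *FOS* reached 24.7% and 20.1% and *FOSL1* was at 6.31% and 8.43%, while the 4 FOS genes together went from 34.3% to 36.4% in WT cells and from 33.7% to 32.3% in the clone. With TNFα alone in WT cells, *JUNB* made up 48.0% and the JUN genes 78.7%, against 25.5% and 71.5% in the clone. These shares are of mRNA, given per library with no test.

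The p65-deficient clone had lower levels than WT cells for 6 of the 7 genes over 6 matched pairs, against 16.9% of 13730 genes called lower. *FOSB* was lower by a log2 change of -0.85 (SE 0.09, adjusted p = 1.0e-05), *JUNB* by -0.69 (SE 0.22, adjusted p = 0.024), *FOS* by -0.53 (SE 0.08), *JUN* by -0.39 (SE 0.07), *FOSL2* by -0.37 (SE 0.09) and *JUND* by -0.35 (SE 0.04). *FOSL1* did not pass (-0.20, SE 0.09, adjusted p = 0.12), with log2 ratios of 0.36 (0.20 to 0.51) and 0.12 (-0.08 to 0.31) in the pairs with CPT and below 0 in the other 4. *FOSB* and *JUND* were lower in 6 of 6 pairs beyond counting error. *JUNB* varied most, with log2 ratios of -1.92 (-2.04 to -1.80) and -1.75 (-1.87 to -1.64) in the pairs with TNFα without inhibitor or with ICRF193, and of -0.33 to 0.20 in the other 4, and its call was lost without either of those pairs (adjusted p = 0.068 and 0.097). Without the pair block 0 of the 7 genes passed. In the 2 pairs left when the 4 libraries of lower depth were set aside with their partners 1 gene passed, *FOSB* (log2 change -0.98, adjusted p = 0.0042), and *JUNB* had a change of -0.06. With all libraries thinned to the smallest total, 6 of the 7 were called lower.

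**Figure D5:**
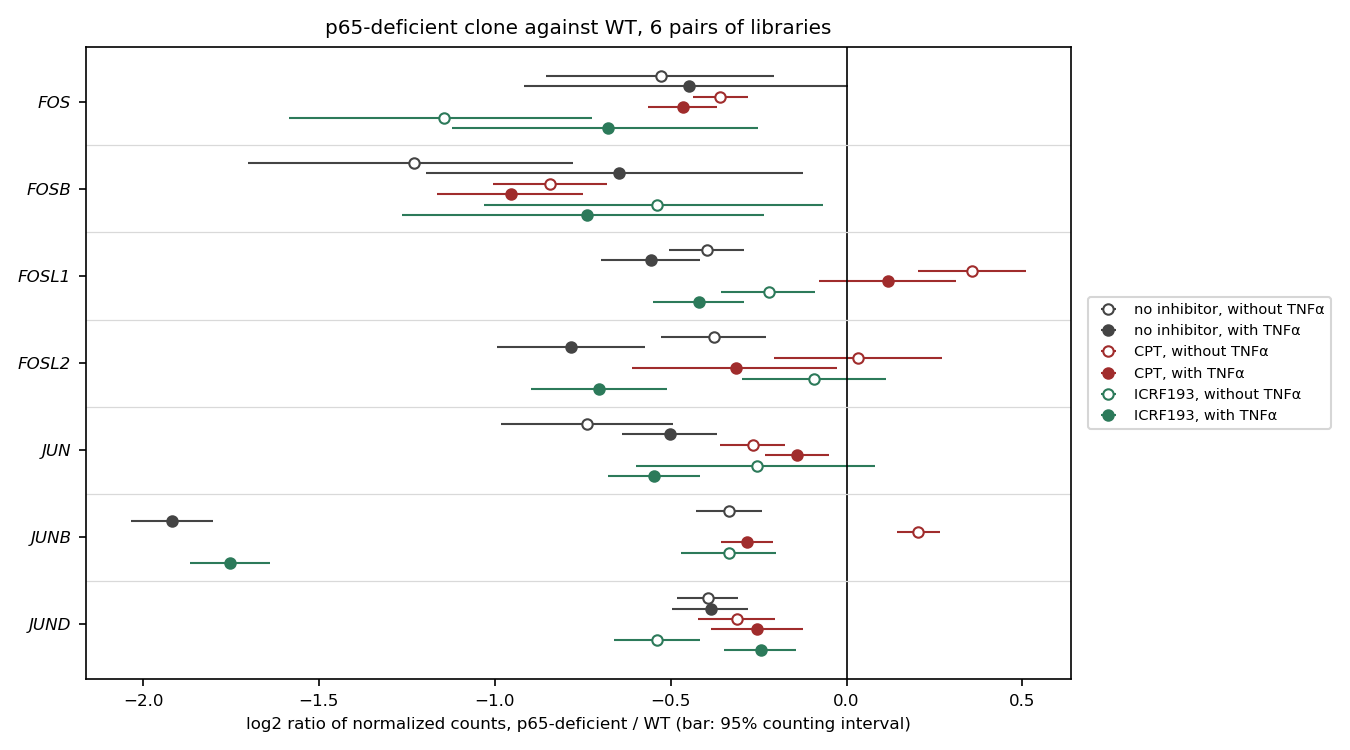
Log2 ratio of normalized counts in the p65-deficient clone to those in WT cells for each gene (x axis) in 6 matched pairs of libraries, by inhibitor (colour) and with TNFα (filled) or without (open), with 95% intervals of counting error. Most points lie below 0, *JUNB* lies near -1.9 and -1.8 with TNFα in the absence of CPT, and *FOSL1* and *JUNB* lie above 0 with CPT alone.

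Genes around AP-1 were examined as lists, whose counts with CPT stand beside 23.2% of all genes called higher and 25.1% called lower. Of 12 dimer partners, 27 kinases and 20 targets listed, 9, 25 and 13 passed the filter on low counts in this comparison. Of 9 other bZIP dimer partners tested, CPT raised 1, *MAFG* (0.36, SE 0.11), and lowered 3, with *MAFF* (-0.89, SE 0.28) and *MAFK* (-0.57, SE 0.13), small MAF proteins, at the largest falls. These are values over both lines, and the CPT effect differed between the lines, WT minus clone, by -1.68 (SE 0.22) for *MAFF*, -0.77 (SE 0.11) for *MAFK* and -0.65 (SE 0.10) for *MAFG*. Of 25 MAP kinases and their activators 7 rose, by at most 0.35 (*MAPK11*, a p38 kinase, with *MAPK13* at 0.28), and 6 fell, *MAP3K1*, a kinase upstream of JNK, by 1.18 (SE 0.09) on the log2 scale. Of 14 factors that bind FOS and JUN promoters or their partners, 0 rose and 8 fell, with *MKL1*, a coactivator of SRF, at -1.02 (SE 0.10) and *MEF2D* at -0.85 (SE 0.11), and a list median of -0.28 beside 0.02 over all genes. Of 13 genes of mRNA and protein turnover 2 rose, *KHSRP* (0.19) and *ELAVL1* (0.15), and 5 fell, among them *FBXW7*, which marks JUN for degradation, at -0.96 (SE 0.07) and *ZFP36L1*, which destabilizes AU-rich mRNAs, at -0.84 (SE 0.07). Of 13 AP-1 target genes tested 3 rose, *HBEGF*, an EGFR ligand, by 1.51 (SE 0.18) and *TIMP1* by 0.33 (SE 0.06), and 3 fell, *PLAUR* (-0.53, SE 0.13) and *VEGFA* (-0.41, SE 0.10) by most. The CPT effect also differed between the lines, WT minus clone, for *HBEGF* (-1.07, SE 0.13), *PLAUR* (-0.68, SE 0.15), *VEGFA* (-0.60, SE 0.10) and *MEF2D* (-0.56, SE 0.14). The medians of the other lists were -0.20 for the partners, -0.01 for the kinases, -0.13 for the turnover genes and -0.02 for the targets, and no list was tested as a set. Among cell type markers, *KRT18*, *KRT8* and *EPCAM* rose by 0.17 to 0.24 and *CLDN4* fell by 0.91. *CD68* rose by 0.34 and *COL1A1* by 0.75, and *VWF* fell by 0.96. The part of other cells in the AP-1 results was not tested.

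With TNFα in WT cells, where 0.613% of all genes were called higher, 2 of 9 dimer partners rose, *ATF3* (0.84, SE 0.09) and *MAFF* (0.77, SE 0.09), and 1 of 25 kinases, *MAP3K8* (1.10, SE 0.20). Of the 14 promoter factors, 0 passed in edgeR's test, and 0 had an unadjusted p under 0.05, beside 4.34% of all genes. Of 13 turnover genes 2 rose, *ZFP36* (0.97, SE 0.13), which like *ZFP36L1* (0.25, SE 0.06) binds AU-rich mRNAs, and of 12 targets the urokinase gene *PLAU* (0.73, SE 0.11) and its receptor *PLAUR* (0.53, SE 0.08). None of the genes in the lists fell. In the clone 1 of the 13 turnover genes passed with TNFα, *HNRNPD* (0.25, SE 0.06), and no gene of the other 4 lists, where 2 partners, 4 kinases, 4 promoter factors and 2 targets had an unadjusted p under 0.05, beside 13.1% of all genes. ICRF193 lowered 2 of 14 promoter factors and 2 of 12 targets and raised none, beside 2.17% of all genes in either direction. It called 0 of 9 dimer partners, 0 of 25 kinases and 0 of 13 turnover genes in edgeR's test. Between the lines, 2 of 9 dimer partners, 6 of 25 kinases, 6 of 14 promoter factors and 3 of 13 targets were lower in the clone, and 0, 4, 1 and 0 were higher, with 1 higher and 0 lower of 13 turnover genes. Of all genes 16.9% were lower in the clone and 15.2% higher. The CPT effect differed between the lines for 4 of 9 dimer partners, 1 of 25 kinases, 2 of 14 promoter factors, 2 of 13 turnover genes and 4 of 13 targets, beside 4.78% of all genes in either direction. All of these list genes had the lower value in WT cells, while of the calls over all genes 49.9% were higher in WT cells, a split that scaling by DESeq2's size factors moved to 40.5% and by total counts to 57.4%.

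The genes whose pattern over the 12 libraries was most like each member were sought among 11210 others with a mean of at least 50 normalized counts, by Pearson's r of log2 values, which is a description here because the libraries share treatments and lines. The r takes no account of the size of a change. For *FOS* the genes were *RGS16* (r = 0.99), *RAB26* (0.99) and *SGK1* (0.99), and for *FOSB* they were *PRKAR1A* (0.98), *FOS* (0.97) and *UQCRB* (0.97). Over the libraries *PRKAR1A* spanned only 5184 to 6324 normalized counts and *UQCRB* 2056 to 3205, beside 40.0 to 792 for *FOSB*, whereas *SGK1* spanned 23.8 to 620. *FOSL1* was followed by *CWC25* (0.99), *AEN* (0.99) and *ZNFX1* (0.98), and *FOSL2* by *TNFRSF10B* (0.99), *PDGFB* (0.98) and *EHD1* (0.98). *JUNB* was most like *NFKBIZ* (0.98), *ZC3H12A* (0.98) and *GADD45A* (0.94), genes of the NF-κB and stress responses. The closest to *JUN* had lower values of r, *LSM8* (0.90), *GFPT1* (0.90) and *KDM6B* (0.89), and *JUND* had *ARHGAP17*, *NIP7* and *RBM28* (each 0.94). Here *LSM8* spanned 617 to 817, *GFPT1* 1133 to 1357 and *KDM6B* 115 to 204 normalized counts, beside 154 to 2633 for *JUN*. Within the family, r was 0.96 between *FOSL1* and *FOSL2*, 0.80 between *JUN* and *JUNB*, 0.64 between *FOS* and *JUN* and -0.88 between *FOS* and *FOSL1*.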

How the data were processed

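Total RNA of the 12 cultures was sequenced from TruSeq Stranded total RNA libraries. The authors trimmed the reads with Trimmomatic, aligned them with STAR to hg19 and counted them per gene with featureCounts 1.5.0 over annotated exons, and the deposited values are these whole-number counts. No strand option stands in the file headers, and versions of the other tools are not given in the sources used here. The labels name RNeasy for the RNA isolation and the study's methods another kit.

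Samples were grouped by their labels. Differences were tested on the counts with edgeR 4.0.16 in R (TMM normalization, filterByExpr with the arms compared as groups, quasi-likelihood test, matched pair as block, Benjamini-Hochberg over all genes tested, threshold 0.05). With 1 library per condition, each error rests on the spread between pairs, which edgeR moderates with that of the other genes. A gene's SE can therefore be smaller than the spread of its own pairs. For *JUN* with TNFα in the clone the pairs lay at 2.71, 0.77 and 2.56 on the log2 scale, beside an SE of 0.17. The fits were also run on simulated counts with 200 genes changed. Those counts held no differences between pairs other than depth, so they do not test the spread between pairs as an error. Levels are counts divided by DESeq2 size factors over the 12 libraries. Log2 ratios of 2 libraries have Clopper-Pearson 95% intervals without a pseudocount, and levels have exact Poisson intervals. All intervals cover counting error only, and reads carried no molecular identifiers.

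The members and lists were chosen with earlier results of these data known. Named were the 7 members, for each the 3 genes with the highest r of log2(normalized count + 1), and from each list the 2 largest rises and falls past the threshold with CPT and with TNFα in WT cells, of which 1 gene is not reported here. Promoters came from RefSeq (6 of the 7 genes, GRCh38.p14), with 250 bases searched. Alternatives were DESeq2 size factors, total counts, no filter, DESeq2's Wald test, no pair block, leaving out pairs or libraries of lower depth, and, chosen after seeing the data, thinning to the smallest total and leaving out pairs in the tests of differences between effects.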

Additional observations from a re-analysis of the deposited data

Results flagged for a closer look

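In 4 cases a member's response differed between lines or treatments by a test of the difference itself. The log2 change of *JUNB* with TNFα was higher in WT cells than in the p65-deficient clone by 1.15 (SE 0.19, adjusted p = 0.0074, edgeR), with 3 of 3 WT pairs above 0 and the pairs of the clone at -0.05 to 0.17. The log2 change of *JUN* with TNFα differed by -1.87 with CPT against without (SE 0.14, adjusted p = 2.3e-13), lower with CPT in both lines, although the counts added by TNFα were 951 and 991 with CPT against 1167 and 851 without. The CPT effect on *FOSL1* differed by -0.72 between WT cells and the clone (SE 0.12, adjusted p = 0.0017), with both WT pairs below both pairs of the clone. The CPT effect on *JUNB* differed by -1.09 (SE 0.22, adjusted p = 0.0088), again with both WT pairs lower, at 1.17 and -0.0032 against 1.70 and 1.63. No group holds enough libraries to look for a library that stands apart.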

How the results depend on the processing

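The 7 calls with CPT, against no inhibitor and against ICRF193, remained 7 under DESeq2 size factors, total counts, no filter, DESeq2, thinning and with any 1 pair left out, with the exceptions of *JUN* and *JUNB* without the pair block. The 462 alternatives of ratios of 2 libraries (a pseudocount of 1, TMM factors, total counts) stayed within their counting intervals. No scaling moved the median of all genes by over 0.1, though total counts moved the share of higher calls from 27.0% to 38.0% for ICRF193, from 56.3% to 71.8% for TNFα in the clone and from 47.5% to 57.5% for the clone against WT.

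No replicate numbers pair the libraries, and the block is the matched pair. Without the replicate block, 0 members were called for TNFα in WT cells, TNFα in the clone, both differences in the TNFα response and the clone, and 1 for the CPT effect between lines, and the genes called were 3 for ICRF193, 0 for TNFα in either line and for both TNFα differences, 343 for the CPT difference and 2043 for the clone. With DESeq2, 0 members were called for TNFα in WT cells, in the clone and between lines, and 1 for the CPT difference, with 83, 25, 2, 11, 1 and 148 genes for ICRF193, TNFα in WT cells, in the clone, between lines, with CPT against without, and the CPT difference, against 296, 88, 64, 33, 5 and 696. Without the filter 1 member was called for ICRF193 and 2 for each TNFα difference, with 143 genes for TNFα in the clone, 132 and 25 for its differences by line and by CPT and 1096 for the CPT difference. Total counts gave 39 genes for TNFα in the clone and 2 for TNFα with CPT. Thinning gave 2 members for TNFα in WT cells, and 163, 21, 2 and 378 genes for ICRF193, TNFα in the clone, TNFα with CPT and the CPT difference. Using all 12 libraries gave 2 genes for TNFα with CPT, and leaving out libraries of lower depth 1 member and 521 genes for the clone.

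With 1 pair left out, members called ranged from 0 to 2 (ICRF193), 2 to 5 (TNFα, WT), 0 to 2 (TNFα between lines) and 1 to 2 (TNFα with CPT), and genes called from 148 to 322 (ICRF193), 60 to 372 (TNFα, WT), 14 to 581 (TNFα, clone), 5 to 99 (TNFα between lines), 5 to 33 (TNFα with CPT) and 277 to 1696 (CPT between lines).

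In 38 cases a member's value changed sign, all from values not called, and 1 passed in the new direction: without the WT pair with TNFα the CPT effect on *JUN* differed between lines by 0.66 (adjusted p = 1.4e-05), in a fit whose lines then had unequal TNFα. With 1 pair left out the ranges were, for ICRF193, -0.076 to 0.042 (*JUN*), -0.0032 to 0.047 (*JUND*) and -0.011 to 0.11 (*FOSL2*). For TNFα they were -0.26 to 0.091 (*FOS*, WT), -0.11 to 0.051 (*FOSL1*, clone) and -0.015 to 0.10 (*JUNB*, clone). For TNFα between lines they were -0.12 to 0.11 (*FOSB*), -0.91 to 1.05 (*JUN*) and -0.31 to 0.056 (*FOS*), and for TNFα with CPT -1.42 to 0.17 (*JUNB*) and -0.17 to 0.26 (*FOSL2*). For CPT between lines they were -0.16 to 0.070 (*FOS*), -1.53 to 0.66 (*JUN*), -0.21 to 0.010 (*JUND*) and -0.40 to 0.32 (*FOSB*). *JUN* with ICRF193 was 0.046 without the block and 0.0031 thinned. *FOS* with TNFα in WT cells was -0.013 with total counts and -0.091 with DESeq2. Between lines with TNFα, *FOSB* was -0.036 with total counts and -0.040 with DESeq2, *JUN* -0.017 with DESeq2 and -0.024 thinned, and *FOS* 0.080 without the block and 0.039 thinned. For TNFα with CPT, *FOSL2* was -0.093 thinned and -0.061 over all 12 libraries, where *FOSB* was 0.026, and *FOSB* was 0.15 thinned for CPT between lines. The causes were not tested. Depth limited *FOSB* (40 to 57 reads) and *FOS* (55 to 133) most, in the clone's libraries without CPT.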
